A study of Mus musculus with 126 samples.

Results

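Grb10 and 9 other imprinted genes of small, separate chromosomal domains were followed across the 4 groups of RNA-seq libraries. The 10 genes were Grb10, Mest, Nnat, Plagl1, Peg3, Zim1, Impact, Igf2r, Airn and Gnas, and each was found by its symbol in the deposited table, which lists 23420 genes. The set was chosen by measured values of these same libraries, since Grb10 was picked because it fell to a similar level after either change, and the others were sorted by the shape of their response. Their levels and fold changes are therefore a description and carry no test. All 10 passed the filter on low counts, which kept 15822 genes.

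The study addresses what CpG methylation and acetylated histones each add to the genomic binding of the transcription factors SP1, GABPA, NRF1, YY1 and MAX. Its RNA-seq part used mouse embryonic stem cells kept with serum and leukaemia inhibitory factor. The wild type line was J1, and triple knockout (TKO) cells were Dnmt1-/-, Dnmt3a-/-, Dnmt3b-/-, so they lack the enzymes that write and copy CpG methylation. Trichostatin A (TSA), an inhibitor of histone deacetylases, was given at a labelled 5 ng/µl for 36 h, and DMSO at 0.0033%, its solvent, served as the control for both genotypes. The groups were thus wild type with DMSO, wild type with TSA, TKO with DMSO and TKO with TSA, with 2 libraries each. Whether the TKO cells are a single clone is not given in the sources used here, so genotype and clone cannot be told apart.

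Imprinted genes are expressed from 1 parental allele because of a germline methylation mark on 1 parental copy, which need not be the silent one. The mark sets promoter activity, insulator binding or an antisense RNA in the domain. Many of them act on growth and nutrient supply before birth, and maternally expressed members often restrain growth while paternally expressed members promote it. Embryonic stem cells carry the marks inherited from the gametes, although the marks can be lost in culture. The counts are not split by allele, so a level here sums both parental copies.

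Promoter windows are shown because the study concerns factors that bind CpG-rich start sites and because DNA methylation in these cells sits mainly on CpG. The windows hold the 250 bases before a RefSeq start site of the GRCm38.p6 build, and 9 of the 10 genes matched, with 15 windows in all. Impact is the member with no window. The motifs of 5 assayed factors and of ZFP57 were searched on both strands, and the same search over 32817 mouse promoter windows gives the background: GCGCATGC for NRF1 (in 2.252% of windows), AANATGGC for YY1 (3.903%), CACGTG for MAX (6.021%), CCGGAAG for GABPA (6.905%), GGGCGG for SP1 (32.72%) and TGCCGC for ZFP57, which protects imprinted marks (8.675%). Capitals in the sequences mark matches to these motifs except that of SP1, which a large share of all windows hold. The 4 windows are Grb10 at chr11:12037421-12037670 (minus strand), the second start site of Mest at chr6:30737800-30738049 (plus strand), Nnat at chr2:157559828-157560077 (plus strand) and Igf2r at chr17:12769707-12769956 (minus strand), each written 5′ to 3′ along its gene.
Grb10: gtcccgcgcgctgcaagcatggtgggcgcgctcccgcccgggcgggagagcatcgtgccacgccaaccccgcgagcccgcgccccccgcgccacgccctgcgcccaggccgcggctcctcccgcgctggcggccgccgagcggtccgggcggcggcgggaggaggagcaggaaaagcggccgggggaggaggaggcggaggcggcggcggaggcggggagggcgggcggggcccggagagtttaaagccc
Mest: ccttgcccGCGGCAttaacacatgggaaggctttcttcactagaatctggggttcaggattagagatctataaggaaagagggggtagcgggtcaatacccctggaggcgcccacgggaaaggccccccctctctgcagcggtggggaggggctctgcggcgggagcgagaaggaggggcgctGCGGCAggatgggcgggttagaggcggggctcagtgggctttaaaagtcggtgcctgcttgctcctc
Nnat: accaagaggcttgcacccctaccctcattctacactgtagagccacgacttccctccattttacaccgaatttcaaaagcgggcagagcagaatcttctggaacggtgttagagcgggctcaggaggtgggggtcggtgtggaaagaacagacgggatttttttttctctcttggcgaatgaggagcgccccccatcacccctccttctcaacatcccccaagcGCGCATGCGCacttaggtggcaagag
Igf2r: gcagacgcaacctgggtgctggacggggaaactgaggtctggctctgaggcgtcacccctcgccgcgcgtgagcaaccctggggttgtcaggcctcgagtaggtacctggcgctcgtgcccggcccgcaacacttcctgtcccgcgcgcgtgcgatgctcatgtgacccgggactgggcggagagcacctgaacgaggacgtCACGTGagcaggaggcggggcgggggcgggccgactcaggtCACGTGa

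The Grb10 window is shown for its CpG content, which was the highest of the 15 windows. It holds 40 CpG, and 98.7% of all windows hold fewer, against a median of 6 over all windows (quartiles 2 and 16). Its 5 SP1 matches start 217, 211, 104, 31 and 27 bases before the start site. The Mest window holds 14 CpG and 2 ZFP57 matches, 242 and 67 bases before the start site. The Nnat window holds 12 CpG and 2 overlapping NRF1 matches, which begin 26 and 24 bases before the start site and together form 1 palindrome. The Igf2r window holds 27 CpG and 2 MAX matches, 48 and 7 bases before the start site. Of the windows not printed, that of Zim1 holds 1 ZFP57 match, that of Plagl1 holds 1 MAX and 1 ZFP57 match, that of Peg3 holds 8 CpG and that of Airn 2. A match describes letters only, and binding was not analysed here.

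**Figure D1:**
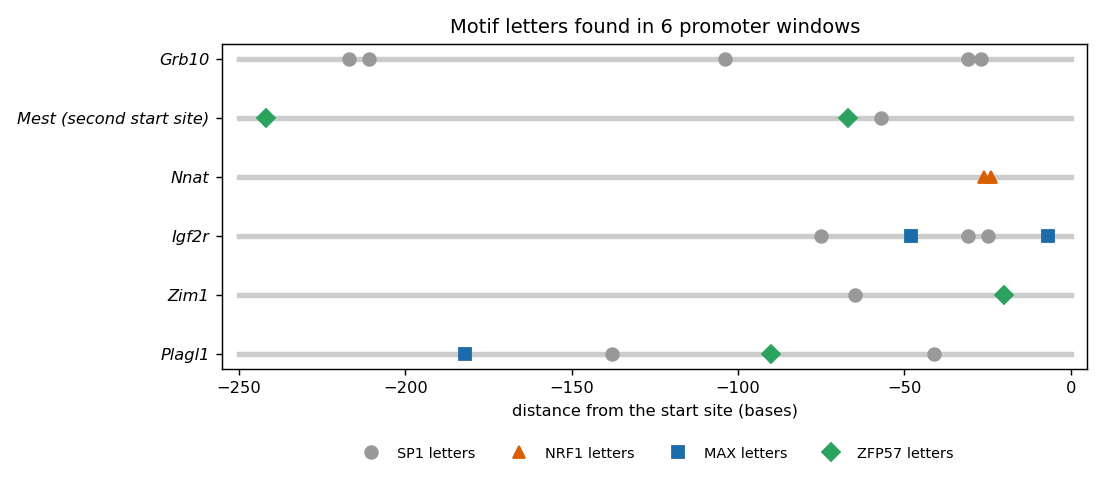
Positions of motif matches in 6 promoter windows, with the distance from the start site in bases on the horizontal axis and 1 gene per line; each symbol is the first base of a match on the gene's strand. Nnat is the gene with NRF1 matches, at 26 and 24 bases before the start, and Grb10 has 5 SP1 matches.

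The libraries held 13280631 to 15542527 counts each, and 3 counts correspond to 0.183 to 0.243 normalised CPM (counts scaled to a common library total), a floor that covers counting error only. CPM values were scaled by trimmed mean of M-values (TMM) factors, and all directions below are relative to that scaling. A gene was called higher or lower where the adjusted p of edgeR's quasi-likelihood test was below 0.05 over all genes tested, and a log2 fold change is given with its standard error (SE). Dnmt1 lay at 360 to 464 CPM in the 4 wild type libraries and at 123 to 135 in the 4 TKO libraries, Dnmt3b at 343 to 596 against 43.7 to 76.1, and Dnmt3a at 152 to 237 against 25.9 to 39.1, so no library went against its genotype label. Which exons the knockouts lack is not given in the sources used here. Of the 8 embryonic stem cell markers, Pou5f1 was at a mean of 913 CPM in wild type DMSO and none was absent. The summed level of these 8 was 3293 and 3710 CPM with DMSO and 2124 and 1895 with TSA in wild type cells, against 4143 and 4501 with DMSO and 2174 and 1851 with TSA in TKO cells.

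Markers of other cell types moved with both changes. The 7 trophoblast markers summed to 770 and 521 CPM with DMSO and 1374 and 1264 with TSA in wild type cells, against 92.0 and 133 with DMSO and 331 and 379 with TSA in TKO cells. All 7 were called higher with TSA in wild type cells, where 27.0% of all genes were higher and 25.9% lower. In TKO with DMSO, 4 were called lower and 0 higher, where 9.63% of all genes were higher and 10.7% lower. Krt8 and Krt18 made up most of the wild type DMSO sums, at means of 291 and 299 CPM. In TKO TSA against wild type DMSO, 4 were called higher and 3 lower, where 31.7% of all genes were higher and 30.2% lower. The 12 mesenchymal markers summed to 826 and 507 CPM in wild type DMSO and 340 and 258 in TKO DMSO. Of 11 tested, 6 were called lower and 1 higher there. With TSA in TKO cells 8 were called higher and 0 lower, where 30.8% of all genes were higher and 27.9% lower. The summed level in TKO TSA was 264 and 308 CPM, however, which overlapped that of TKO DMSO. The 8 endoderm markers lay at 14.6 and 16.8 CPM in wild type DMSO and 49.7 and 60.5 in TKO TSA. The 6 mesoderm markers summed to 27.5 and 17.0 CPM with DMSO and 36.6 and 39.6 with TSA in wild type cells. In TKO cells they summed to 9.78 and 9.97 CPM with DMSO and 45.7 and 58.3 with TSA. Hand1, which is also in the trophoblast list, held 24.9 and 34.9 CPM of the TKO TSA sums. T went the other way, from a mean of 9.71 CPM in wild type DMSO to 0.773 in TKO TSA. Neural markers summed to 648 and 546 CPM in wild type DMSO and 323 and 265 in wild type TSA. Of the 7 tested, 5 were called lower and 1 higher there. No listed marker was without counts in both wild type DMSO libraries. The part of these markers in the member values below was not tested, and in bulk RNA fewer cells of a type and less RNA per cell cannot be told apart.

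Grb10 encodes an adaptor that binds the insulin and IGF1 receptors and restrains their signalling, and it is expressed from the maternal allele in most tissues. It spans chromosome 11, 11930499 to 12037420, on the minus strand (mm10). Its level was 466 and 425 CPM with DMSO and 137 and 115 with TSA in wild type cells, against 132 and 121 with DMSO and 113 and 121 with TSA in TKO cells. The 2 wild type DMSO libraries stood far above the other 6, whose values lay between 113 and 137. It was 3.53-fold lower with TSA in wild type cells, a log2 fold change of -1.82 ± 0.11, and 3.52-fold lower in TKO with DMSO, -1.81 ± 0.11. The direct difference between TKO DMSO and wild type TSA was 0.01 ± 0.11, and their libraries overlapped.

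Adding the second change left Grb10 at about the same level. TSA in TKO cells gave a log2 fold change of -0.12 ± 0.11, and the knockout within TSA gave -0.11 ± 0.11, with overlapping libraries in the latter. Summing the fold change of each change alone would give -3.63, whereas both together gave -1.93 ± 0.11. The interaction, that is the difference between the TSA effects of TKO and wild type cells, was therefore 1.70 ± 0.15. The 3 falls against wild type DMSO and the interaction were called under each of the alternatives tried. Grb10 was picked for this shape, so these fits of the same libraries carry no test of it. The small TSA difference in TKO turned to 0.03 when libraries were scaled by total counts alone.

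**Figure D2:**
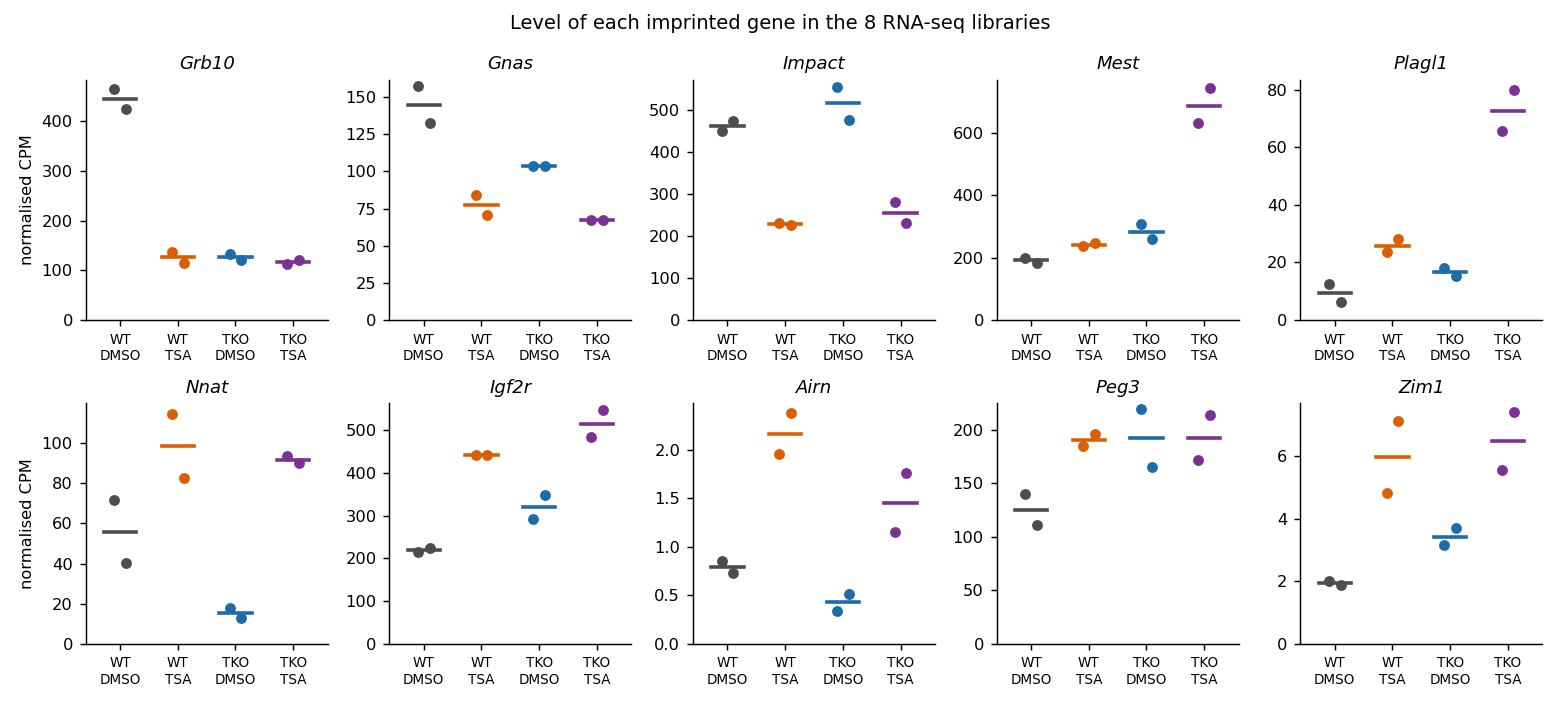
Normalised CPM of the 10 genes in each library; points are the 2 libraries of a group, the line is their mean, each vertical axis starts at 0 and has its own range. Grb10 is high in wild type DMSO alone (466 and 425 CPM), whereas Mest (632 and 742) and Plagl1 (65.6 and 79.7) are highest in TKO TSA.

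The genes closest to Grb10 in profile were sought among 14420 other genes whose mean reached 1 CPM, by the root mean square difference of centred log2 CPM over the 8 libraries. They were 9930014A18Rik (0.17), Setbp1 (0.18) and Dhrs3 (0.27), and since they were picked for likeness their values are a description. Setbp1, which encodes a SET-binding nuclear protein, lay at 19.6 and 15.6 CPM with DMSO and 6.35 and 6.46 with TSA in wild type cells, against 5.82 and 5.24 with DMSO and 4.47 and 5.02 with TSA in TKO cells. Dhrs3, a retinaldehyde reductase, went from 6.14 and 4.38 CPM in wild type DMSO to 1.04 and 1.36 with TSA, and held 2.12 and 1.09 with DMSO and 1.35 and 1.00 with TSA in TKO cells. 9930014A18Rik went from 6.14 and 4.86 CPM in wild type DMSO to between 0.96 and 1.42 in the other 6 libraries. Ranked by Pearson's r over the 8 libraries instead, 2 of the 3 stayed, with Setbp1 at 0.98, and Rpain replaced Dhrs3.

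Gnas was the other member called lower after each change alone. It encodes the stimulatory G protein alpha subunit that couples hormone receptors to cAMP, and its row merges transcripts from several start sites, some imprinted and some not. It spans chromosome 2, 174284320 to 174346742, on the plus strand, and 111 of its exon bases (1.83%) lie opposite exons of Nespas. Levels were 157 and 133 CPM with DMSO and 84.2 and 71.0 with TSA in wild type cells, against 104 and 104 with DMSO and 67.3 and 67.4 with TSA in TKO cells. The 4 groups did not overlap. TSA gave a log2 fold change of -0.90 ± 0.11 in wild type and -0.62 ± 0.11 in TKO cells, and the knockout gave -0.48 ± 0.11 in DMSO and -0.21 ± 0.11 in TSA, the last not called. The fall in TKO DMSO lost its call without wild type DMSO 1, TKO DMSO 1 or TKO DMSO 2.

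Impact followed TSA alone. It encodes an inhibitor of GCN2, the kinase that halts translation when amino acids are short, and it lies on chromosome 18, 12972252 to 12992948, on the plus strand. Levels were 451 and 475 CPM in wild type DMSO and 556 and 476 in TKO DMSO, against 230 and 226 in wild type TSA and 281 and 231 in TKO TSA. All 4 TSA libraries lay below all 4 DMSO libraries. TSA gave -1.02 ± 0.11 in wild type and -1.01 ± 0.11 in TKO, and the interaction was 0.01 ± 0.16. The knockout gave 0.16 ± 0.11 in DMSO and 0.17 ± 0.11 in TSA, neither called. Of the genes around GCN2, Atf4, the transcription factor it induces, fell with TSA in wild type by -1.48 ± 0.19 (edgeR adjusted p = 0.000115). Atf4 held 234 and 354 CPM with DMSO and 106 and 104 with TSA in wild type cells. In TKO cells it held 148 and 211 CPM with DMSO and 125 and 121 with TSA. Eif2ak4, the gene of GCN2, held 50.2 and 48.8 CPM with DMSO and 52.1 and 50.8 with TSA in wild type cells. Gcn1l1, the symbol here for Gcn1, held 329 and 253 CPM with DMSO and 215 and 166 with TSA in wild type cells. In TKO cells Gcn1l1 held 237 and 233 CPM with DMSO and 142 and 139 with TSA. These are RNA levels and do not measure GCN2 activity, and a link between these genes and Impact was not tested.

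Mest rose after each change and most after both. It encodes a paternally expressed protein of the alpha/beta hydrolase fold and lies on chromosome 6, 30733506 to 30748466, on the plus strand. Its level was 200 and 183 CPM with DMSO and 237 and 247 with TSA in wild type cells, against 308 and 259 with DMSO and 632 and 742 with TSA in TKO cells. The groups did not overlap, and TKO TSA stood far above the rest. The log2 fold change was 0.34 ± 0.11 for TSA alone, 0.57 ± 0.11 for the knockout alone and 1.84 ± 0.11 for both, a 3.59-fold rise, against a sum of 0.90. The interaction was 0.94 ± 0.16, and it lost its call without replicate 1 of either wild type group or replicate 2 of either TKO group. The call for TSA in wild type was lost without wild type DMSO replicate 2 (log2 fold change 0.27), wild type TSA replicate 1 (0.36) or wild type TSA replicate 2 (0.31), and the call for TKO in DMSO was lost without TKO DMSO replicate 1 (0.44). The row of Mir335, a microRNA gene inside Mest on the same strand, held 0.49 to 1.30 CPM in wild type libraries and 3.11 and 3.20 in TKO TSA. The knockout difference within TSA was 1.95 ± 0.42 (edgeR adjusted p = 0.00949). Mir335 shares no exon bases with Mest, but reads of unspliced Mest RNA there cannot be told apart from its own. The counts do not measure the mature microRNA.

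Plagl1 had the largest rise of the 10 when both changes were combined. It encodes a zinc finger transcription factor, also known as Zac1, that restrains the cell cycle and is expressed from the paternal allele. It lies on chromosome 10, 13090788 to 13131695, on the plus strand. Levels were 12.6 and 6.16 CPM with DMSO and 23.6 and 28.1 with TSA in wild type cells, against 18.2 and 15.4 with DMSO and 65.6 and 79.7 with TSA in TKO cells. The groups did not overlap, although the 2 wild type DMSO libraries differed widely. The log2 fold change was 1.44 ± 0.25 for TSA alone, 0.83 ± 0.26 for the knockout alone and 2.94 ± 0.25 for both, or 7.65-fold. The interaction of 0.67 ± 0.34 was not called, but was called without wild type DMSO 2, at the upper end of its range of 0.05 to 1.08. The call for the knockout alone was lost without wild type DMSO 2, TKO DMSO 1 or TKO DMSO 2 and in a fit of those 2 groups only.

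Nnat moved in opposite directions after the 2 changes. It encodes neuronatin, a small proteolipid of the endoplasmic reticulum, and lies on chromosome 2, 157560110 to 157562519, on the plus strand within the span of Blcap. Levels were 71.7 and 40.1 CPM with DMSO and 115 and 82.4 with TSA in wild type cells, against 17.9 and 12.7 with DMSO and 93.7 and 90.0 with TSA in TKO cells. TKO DMSO was the low group, and the TSA libraries of both genotypes overlapped. The knockout in DMSO gave -1.87 ± 0.26, TSA gave 0.82 ± 0.24 in wild type and 2.58 ± 0.26 in TKO, and the interaction was 1.77 ± 0.35. The rise with TSA in wild type lost its call under DESeq2, without wild type DMSO 2 and without wild type TSA 1. The interaction lost its call when any 1 of 6 libraries was left out, namely wild type DMSO 1, wild type TSA 2 and all TKO libraries, with values from 1.29 to 2.12 over the alternatives.

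Igf2r and its antisense RNA Airn were both higher with TSA. Igf2r encodes the receptor that clears IGF2 and carries mannose 6-phosphate ligands to lysosomes, and it is maternally expressed in mouse tissues once Airn is transcribed from the paternal copy. It lies on chromosome 17, 12682406 to 12769706, on the minus strand. Its level was 215 and 224 CPM with DMSO and 442 and 442 with TSA in wild type cells, against 292 and 348 with DMSO and 484 and 546 with TSA in TKO cells, with no overlap between groups. TSA gave 1.01 ± 0.10 in wild type and 0.69 ± 0.10 in TKO, and the knockout gave 0.54 ± 0.10 in DMSO and 0.22 ± 0.10 in TSA, the last not called. The call for the knockout in DMSO was lost without TKO DMSO 2.

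Airn, on chromosome 17, 12741311 to 12859884, on the plus strand, is the long noncoding RNA that overlaps Igf2r and silences it in cis. It held 12 and 9 counts with DMSO and 32 and 35 with TSA in wild type cells, against 5 and 7 with DMSO and 17 and 28 with TSA in TKO cells, that is 0.34 to 2.38 CPM. The TSA libraries of both genotypes lay above all DMSO libraries, and TKO DMSO was lowest. TSA gave 1.43 ± 0.39 in wild type and 1.76 ± 0.45 in TKO, whereas the knockout values of -0.90 ± 0.50 in DMSO and -0.56 ± 0.34 in TSA were not called. The call in wild type was lost under DESeq2 and without wild type DMSO 2 or wild type TSA 2. In the table the exons of Airn and Igf2r share no bases, and the row of Airn counts 2188 exon bases of a much longer span. Airn starts inside Igf2r on the other strand, and since use of the strand in counting is not given in the sources used here, reads of unspliced Igf2r RNA and of Airn cannot be told apart where the spans overlap.

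**Figure D3:**
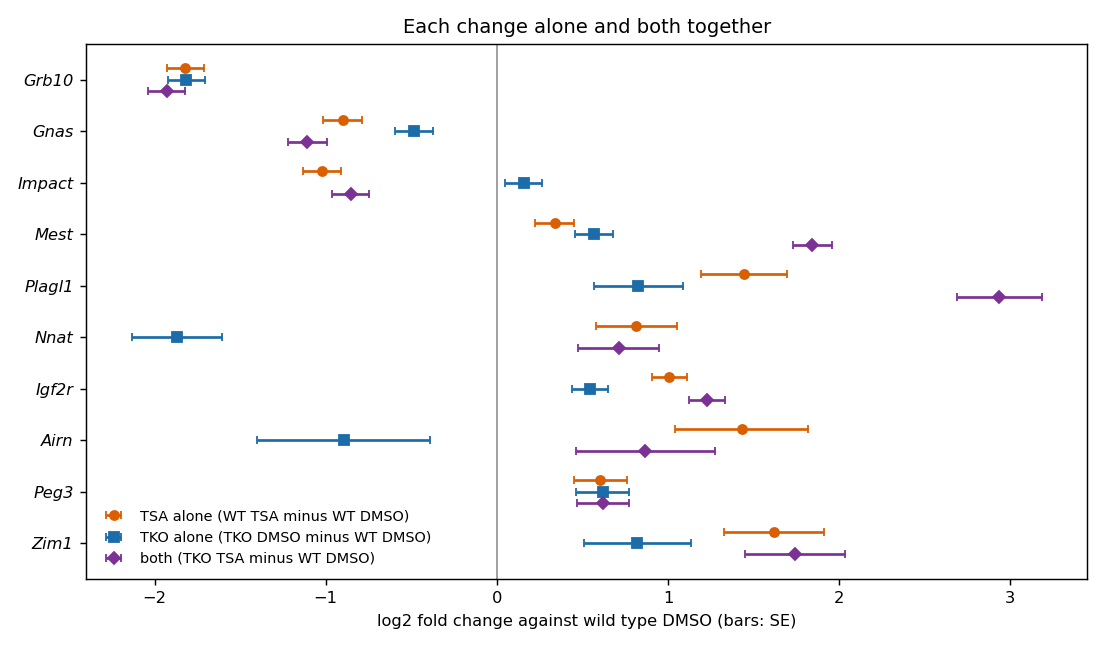
Log2 fold change against wild type DMSO, with bars for the SE, for TSA alone, the knockout alone and both, for each of the 10 genes; the 3 values of a gene share the wild type DMSO libraries. For Grb10 all 3 lie near -1.8 to -1.9 and for Peg3 near 0.6, whereas for Nnat the knockout alone lies at -1.87 and TSA alone at 0.82.

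Peg3 had the shape of Grb10 in the upward direction. It encodes a large zinc finger protein expressed from the paternal allele, known for its part in growth and maternal behaviour, and lies on chromosome 7, 6705960 to 6730419, on the minus strand. Levels were 140 and 111 CPM with DMSO and 185 and 196 with TSA in wild type cells, against 219 and 166 with DMSO and 172 and 214 with TSA in TKO cells. The 3 changed groups overlapped each other and lay above wild type DMSO. The log2 fold change was 0.60 ± 0.15 for TSA alone, 0.62 ± 0.15 for the knockout alone and 0.62 ± 0.15 for both, and the interaction of -0.60 ± 0.22 was not called. Of its exon bases, 865 (13.1%) lie opposite exons of Peg3as, and use of the strand in counting is not given in the sources used here, so reads there cannot be told apart. The first rise was lost without wild type DMSO 2, and the second without wild type DMSO 2 or TKO DMSO 1.

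Zim1, a zinc finger gene next to Peg3 that is expressed from the maternal allele, lies on chromosome 7, 6675443 to 6696432, on the minus strand. Its level was low, at 1.998 and 1.86 CPM with DMSO and 4.83 and 7.14 with TSA in wild type cells, against 3.15 and 3.71 with DMSO and 5.55 and 7.41 with TSA in TKO cells. The TSA libraries lay above the DMSO libraries in each genotype and overlapped between genotypes. TSA gave 1.62 ± 0.29 in wild type and 0.92 ± 0.27 in TKO, and the knockout in DMSO gave 0.82 ± 0.31, which was called only with the replicate number as a block. The call in TKO was lost without TKO DMSO 1 or TKO TSA 2. Usp29, paternally expressed and starting 322 bases from Peg3, rose with TSA in wild type by 1.46 ± 0.28 (edgeR adjusted p = 0.00149), from 5.42 and 9.65 to 16.0 and 25.2 CPM.

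Per kilobase of exon in wild type DMSO, Impact stood highest at a mean level of 135 CPM per kb, followed by Grb10 at 86.4, Mest at 68.9, Nnat at 46.2, Igf2r at 24.6, Gnas at 23.9 and Peg3 at 18.9. Plagl1 at 1.79, Zim1 at 0.552 and Airn at 0.362 were far lower. Igf2r and Gnas were the neighbours in this order whose libraries overlapped, and the order compares row totals per exon length rather than molecules.

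Because the members were chosen with these contrasts known, their counts are set beside the share of all genes called and nothing is read from them. With TSA in wild type, 7 members were called higher and 3 lower, where 27.0% of all genes were higher and 25.9% lower. Some of these calls were lost without wild type DMSO 2. With TSA in TKO, 6 were higher and 2 lower, against 30.8% and 27.9% of all genes. In TKO with DMSO, 4 were higher and 3 lower, against 9.63% and 10.7%, and some calls were lost without TKO DMSO 1 or TKO DMSO 2. The share of all genes called in such smaller fits is not given here, so nothing about the members is read from these losses.

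Within TSA the knockout gave 2 calls, Mest and Plagl1, both higher, where 10.0% of all genes were higher and 8.38% lower. With both changes, 6 were higher and 3 lower, against 31.7% and 30.2%. In the direct comparison of TKO DMSO with wild type TSA, 2 were higher (Impact and Gnas) and 5 lower, against 28.0% and 29.6%. Some of these calls were lost without wild type TSA 2. The Gnas call there was lost when libraries were scaled by total counts alone. The median log2 fold change of the 10 was 0.71 with TSA in wild type and 0.35 in TKO with DMSO, where the medians of all genes were 0.01 and -0.01.

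The interaction was called for 3 members, Grb10, Mest and Nnat, all higher, where 0.879% of all genes were higher and 0.468% lower. Without wild type DMSO 1, TKO DMSO 2 or TKO TSA 2, the calls of Mest and Nnat were lost and that of Grb10 was kept. The 3 positive values came from different levels. For Grb10 the second change added almost no further fall, for Mest both together exceeded the sum of the single changes by 0.94, and for Nnat the rise with TSA was larger from the lower TKO level.

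**Figure D4:**
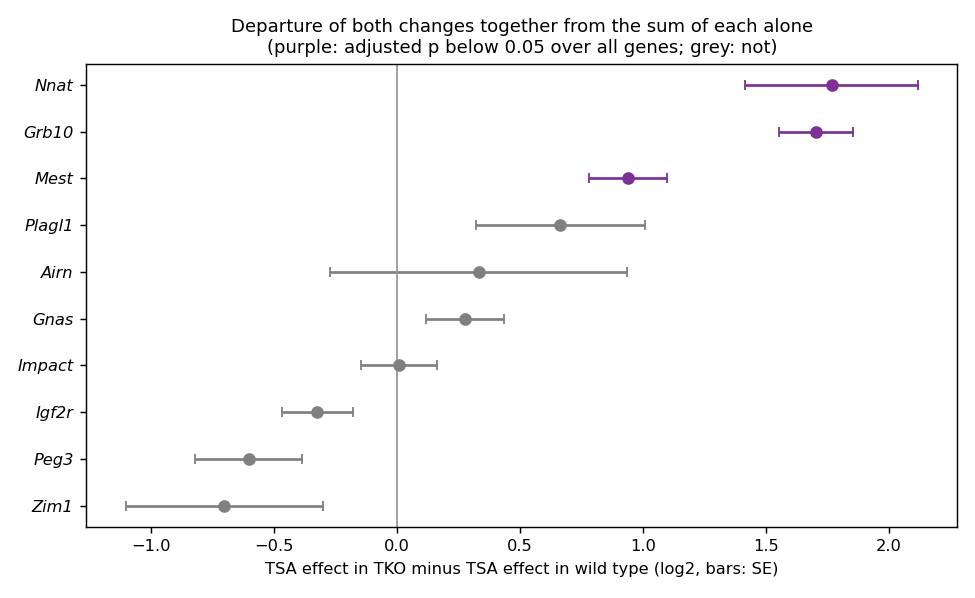
TSA effect in TKO minus TSA effect in wild type on the log2 scale, with bars for the SE, for the 10 genes in order; purple points were called over all genes and grey points were not. Nnat (1.77), Grb10 (1.70) and Mest (0.94) lie highest, and Zim1 (-0.70) and Peg3 (-0.60) lowest.

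Both receptors that GRB10 binds were lower in TKO cells with DMSO. Of 31 tested genes of insulin and IGF signalling, 3 were called higher and 10 lower in TKO with DMSO (median log2 fold change -0.10, all genes -0.01, where 9.63% of all genes were higher and 10.7% lower). Insr, the insulin receptor, was at 39.4 and 42.9 CPM in wild type DMSO and 22.3 and 23.1 in TKO DMSO, a fall of -0.86 ± 0.12 (edgeR adjusted p = 0.000642). Igf1r, the IGF1 receptor, fell by -1.08 ± 0.14 (edgeR adjusted p = 0.000414), from 82.7 and 75.9 to 32.7 and 42.4 CPM. Of the genes for docking proteins that pass the receptor signal, Irs1 and Irs2 also fell, Irs1 by -3.03 ± 0.25 (edgeR adjusted p = 2.73e-05), from 37.0 and 22.3 to 4.04 and 3.20 CPM, and Irs2 by -2.18 ± 0.21 (edgeR adjusted p = 7.07e-05). Irs4, of the same family, was at 3.57 and 3.89 CPM in wild type with DMSO and 5.61 and 5.31 CPM in TKO with DMSO, a log2 difference of 0.55 ± 0.30 that was not called (edgeR adjusted p = 0.23). The ligand gene Igf2, itself imprinted, fell by -2.87 ± 0.26 (edgeR adjusted p = 4.67e-05), from 62.8 and 80.1 to 9.58 and 9.97 CPM.

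With TSA in wild type cells 8 genes of the same list were called higher and 8 lower, where 27.0% of all genes tested were higher and 25.9% lower. Under total count scaling these counts became 12 and 6, and under upper quartile scaling 11 and 6. Where Grb10 fell 3.53-fold, Insr rose by 0.60 ± 0.11 (edgeR adjusted p = 0.00113) and Igf2 rose by 1.35 ± 0.22 (edgeR adjusted p = 0.000523). Igf1r (-0.14 ± 0.13), Irs1 (-0.20 ± 0.21) and Irs2 (0.04 ± 0.18) were not called, and Irs1 was called lower without wild type DMSO 2, at -0.53. Pik3r1, the regulatory subunit of PI3 kinase, rose by 1.06 ± 0.11 (edgeR adjusted p = 4.07e-05), and Nedd4, a ubiquitin ligase that binds GRB10, fell by -1.03 ± 0.10 (edgeR adjusted p = 3.19e-05). Igfbp3, which binds IGFs outside the cell, was the gene of this list with a called interaction, 2.36 ± 0.28 (edgeR adjusted p = 0.00521), and this call was lost without TKO DMSO 2.

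Of the other adaptors in the family of Grb10, Grb7 fell by -0.53 ± 0.13 with TSA in wild type (edgeR adjusted p = 0.00526, lost under total count scaling) and by -0.91 ± 0.13 in TKO with DMSO (edgeR adjusted p = 0.000879). Grb14, the third family member and also an inhibitor of the insulin receptor, rose with TSA in wild type by 1.84 ± 0.32 (edgeR adjusted p = 0.000816), from 3.07 and 2.11 to 7.94 and 10.7 CPM. In the list of 28 partners and paralogues, 7 were called higher and 6 lower with TSA in wild type, beside the 27.0% and 25.9% of all genes, and 9 and 4 under total count scaling. Among them, Gnal, a paralogue of Gnas, rose by 1.99 ± 0.23 (edgeR adjusted p = 7.23e-05) and Adcy5, an adenylyl cyclase activated by the Gnas product, rose by 1.92 ± 0.31 (edgeR adjusted p = 0.000538), both from a few CPM.

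**Figure D5:**
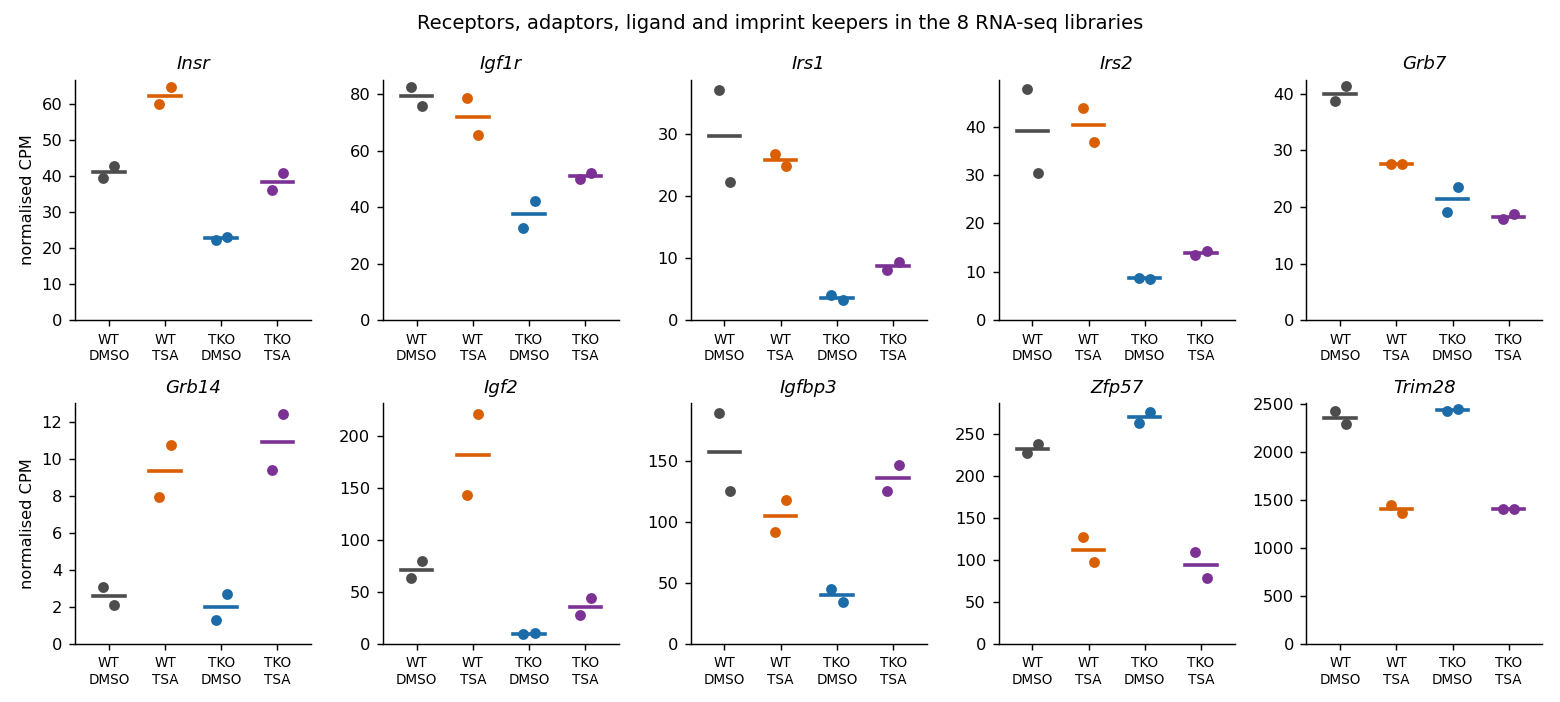
Normalised CPM of insulin and IGF receptors, docking proteins, family adaptors, a ligand, a binding protein and 2 imprint keepers in each library; points are the 2 libraries of a group, the line is their mean, and each vertical axis starts at 0. Irs1, Irs2, Igf1r and Igf2 are low in both TKO groups, whereas Zfp57 and Trim28 are low in both TSA groups.

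Genes for proteins that keep imprints through cell division were mostly lower with TSA. Of 20 listed genes, 1 was called higher and 12 lower with TSA in wild type (median -0.36, all genes 0.01). The shares of all genes there were 27.0% higher and 25.9% lower. With TSA in TKO, 2 were higher and 12 lower, against 30.8% and 27.9% of all genes. Under total count scaling the split in wild type was 1 higher and 8 lower. Zfp57, whose zinc finger protein binds methylated TGCCGC at imprinted marks, fell from 227 and 237 to 127 and 97.4 CPM in wild type (-1.05 ± 0.15, edgeR adjusted p = 0.00026) and by -1.52 ± 0.15 in TKO (edgeR adjusted p = 1.74e-05). Trim28, the corepressor it recruits, fell by -0.75 ± 0.08 in wild type (edgeR adjusted p = 5.87e-05). Dppa3, which shields marks in the early embryo, was the gene of the list that rose there, by 2.83-fold (edgeR adjusted p = 0.000482). In TKO with DMSO, 1 of the 20 was called, Zfp42, against 5 with the replicate block. In the main fit 9.63% of all genes were higher there and 10.7% lower. Zfp57 (0.21 ± 0.15) and Trim28 (0.05 ± 0.08) were not called.

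Around the 10 genes, 75 genes of the table lie within 250 kb, and 46 were tested. With TSA in wild type, 7 of the 46 were called higher and 19 lower (median -0.22), a split that became 11 and 11 under total count scaling, and in TKO with DMSO 6 were higher and 3 lower. The shares of all genes were 27.0% and 25.9% with TSA in wild type, and 9.63% and 10.7% in TKO with DMSO. Some calls in TKO with DMSO were lost without wild type DMSO 1, TKO DMSO 1 or TKO DMSO 2. The share of all genes called in those fits is not given here. Beside Grb10, Ddc, the enzyme aromatic L-amino acid decarboxylase, fell with TSA by -1.42 ± 0.15 in wild type (edgeR adjusted p = 4.17e-05) and by -1.55 ± 0.15 in TKO (edgeR adjusted p = 1.18e-05). In TKO with DMSO Ddc was at 36.6 and 44.5 CPM against 33.3 and 36.1 in wild type and was not called (0.23 ± 0.14). Cobl, an actin nucleator on the other side of Grb10, also fell with TSA, by -1.84 ± 0.17 in wild type (edgeR adjusted p = 2.61e-05). Its value in TKO with DMSO was 0.49 ± 0.16 (edgeR adjusted p = 0.0492), a rise whose call was lost when any wild type DMSO or TKO DMSO library was left out.

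Near the other members, Stx11 beside Plagl1 rose with TSA in wild type by 1.75 ± 0.22 (edgeR adjusted p = 9.59e-05), and Ttc39c beside Impact rose by 1.86 ± 0.23 (edgeR adjusted p = 0.000101). Acat2 near Airn fell by -0.68 ± 0.10 (edgeR adjusted p = 0.00031) and Slmo2 near Gnas by -0.79 ± 0.11 (edgeR adjusted p = 0.000219). Nespas, the antisense RNA of the Gnas domain, rose in TKO with DMSO by 0.69 ± 0.11 (edgeR adjusted p = 0.00151), from 36.6 and 39.7 to 64.7 and 58.7 CPM, where Gnas was lower. Its exons share bases with those of Gnas, so reads there cannot be told apart.

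Of 53 imprinted genes tested outside the 10, 16 were called higher and 10 lower with TSA in wild type, where 27.0% of all genes were higher and 25.9% lower. In TKO with DMSO 13 were higher and 7 lower, where 9.63% of all genes were higher and 10.7% lower. Under total count scaling the TSA split was 21 higher and 8 lower. Some calls in TKO with DMSO were lost without wild type DMSO 1 or without either TKO DMSO library. The share of all genes called in those fits is not given here. H19, the maternally expressed noncoding RNA whose mark also governs Igf2, rose by 2.55 ± 0.40 with TSA alone (edgeR adjusted p = 0.000417), by 2.69 ± 0.40 in TKO with DMSO (edgeR adjusted p = 0.00108) and by 5.98 ± 0.46 with both (edgeR adjusted p = 2.73e-06). Peg10, a retrotransposon-derived gene of placental growth, rose with TSA by 1.95 ± 0.12 in wild type (edgeR adjusted p = 2.79e-06), and its knockout value in DMSO of -0.12 ± 0.11 was not called.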

How the data were processed

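Per the labels' protocols, RNA depleted of ribosomal RNA was sequenced as paired reads from a directional library. The authors deposited raw read counts per gene, with exon positions and the summed exon length in bases. The submitters' processing notes name TopHat2 2.0.13, featureCounts 1.4.5-p1, edgeR 3.22.3 and the mm10 build. The annotation and the handling of strand and multi-mapping reads are not given in the sources used here.

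The 8 RNA-seq libraries were grouped by their labels, and the other 118 of 126 samples were not analysed here. The counts were fitted with edgeR 4.0.16 in R 4.3.3 (filterByExpr, TMM factors, a quasi-likelihood model with a mean per group, 4 residual degrees of freedom, two-sided tests, Benjamini-Hochberg adjustment over 15822 genes). Each SE is the fold change divided by the root of its F. The chi-square per degree of freedom between replicates was 5.58 to 13.0, so each library counted as 1 replicate. The labels number the libraries of a group 1 and 2 and do not say that they came from separate cultures, so p-values measure only the spread between these libraries. An exact permutation test of 2 against 2 cannot go below 0.333. The script was tested on simulated data.

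The members, gene lists, marker lists and tests were chosen with earlier results of these data known. Named genes are the 10 members, the 3 targeted genes, up to 8 neighbours within 250 kb by smallest p, up to 4 called genes per list and comparison, and the 3 genes most like Grb10. Mir335, Usp29, Grb14, Rpain and members of lists named beyond that number or as not called were chosen after their values were seen. Listed genes Zfp264 and Hymai matched no symbol, and Gcn1 was found under its other listed symbol, Gcn1l1. Promoter sequences are from RefSeq. Alternatives were relative log expression, upper quartile and total count scaling, no filter, DESeq2 1.42.0, a replicate block, each library left out and fits of 2 groups only.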

Additional observations from a re-analysis of the deposited data

Results flagged for a closer look

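The TSA effect differed between the genotypes, by the interaction term of edgeR's model over all genes, in 3 of the 10 genes. This term was called higher for 0.879% of all genes and lower for 0.468%. For Grb10 the difference (TKO minus wild type) was 1.70 on the log2 scale, with TSA values of -1.82 in wild type and -0.12 in TKO. For Mest it was 0.94, with 0.34 in wild type and 1.28 in TKO. For Nnat it was 1.77, with 0.82 in wild type and 2.58 in TKO, where the TKO DMSO libraries held 17.9 and 12.7 CPM. The calls for Mest and Nnat were lost when single libraries were left out, as given above. The 3 genes belong to a set chosen by values of these libraries, so the differences are a description.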

How the results depend on the processing

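Across all alternatives, 945 of the members' fold changes moved by less than the spread between replicates and 94 moved further, and no called fold change changed sign. The number of members called stayed within 1.5 times the main count under each scaling, without the filter, under DESeq2 and in fits of 2 groups. With the replicate block the TSA effect was called for 10 members in wild type and 8 in TKO. The knockout effect was called for 8 in DMSO and 2 in TSA. Both changes were called for 9 members, the interaction for 3, and TKO DMSO against wild type TSA for 7. Over all genes the block also gave more calls. For TSA it called 9256 genes in wild type and 10039 in TKO, against 8358 and 9284 in the main fit. For the knockout it called 4217 in DMSO and 4097 in TSA, against 3221 and 2910. For both changes it called 10413 against 9793, and for TKO DMSO against wild type TSA 9827 against 9115. Same-numbered libraries deviated together with an r of 0.0673 to 0.325 across genes, and the labels do not say what a number shares. When 1 library was left out, 6 to 10 members were called for TSA in wild type, 3 to 7 for TKO in DMSO, 1 to 4 for the interaction and 4 to 7 for TKO DMSO against wild type TSA. The cause of the lost calls was not tested.

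Total count scaling moved the median of all genes from 0.01 to 0.22 for TSA in wild type and from 0.04 to 0.19 for TSA in TKO, and raised the share of called genes that were higher from 51.0% to 70.5% and from 52.5% to 64.4%. For both changes the share went from 51.2% to 63.1%, and for TKO DMSO against wild type TSA from 48.6% to 33.9%. Upper quartile scaling gave 65.8% for TSA in wild type. Over all genes, the interaction was called for 213 genes, against 488 without the filter, 633 with the replicate block and 394 under DESeq2. Depth limits Airn and Zim1 most, since Airn held 5 to 35 counts per library.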
